A study of Mus musculus with 15 samples.

Results

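The *Sox* genes *Sox2*, *Sox15*, *Sox4*, *Sox11*, *Sox12*, *Sox13*, *Sox3* and *Sox21* were followed through loss of OCT4, the product of *Pou5f1*, in 15 RNA sequencing libraries of mouse embryonic stem cells (ESCs). They were taken by name, 8 of the 20 genes of the Sox family and of the 48709 genes counted, and the other 12 family genes serve as the comparison. CreER ESCs (genotype label Oct4Fl/-; CAG CreER, strain Mixed 129SV C57BL/6) hold a floxed *Pou5f1* allele opposite a null β-geo allele and a constitutively expressed, tamoxifen-activated Cre, and were given 4-OHT at 500 nM for 0, 12, 18, 24 or 36 h, with 2 replicate libraries at each time. O4AID ESCs (genotype label Oct4-/-; TetOFF Oct4; CAG Oct4AID; CAG Tir1, strain 129SV) derive from ZHBTc4 ESCs and depend on OCT4 made constitutively as a fusion to an auxin-inducible degron, which the Tir1 protein marks for destruction once the auxin IAA is present. They were given IAA at 500 µM for 0, 1.5, 6, 10 or 24 h with 1 library at each time, and doxycycline at 1 µg/ml kept their wild-type *Oct4* transgene silent in every library, the 0 h library included. Both lines were grown in N2B27 with the inhibitors PD03 and Chiron and with mLIF, and no source used here says whether the CreER replicates were separate cultures, so p-values measure only the spread between these libraries, which may be technical.

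SOX proteins bind DNA through a shared high mobility group (HMG) box, a domain that bends the helix, and most of them act with a partner factor bound beside them. In ESCs SOX2 binds with OCT4 on composite elements that hold a SOX and an octamer site, among them elements of *Pou5f1*, *Nanog* and *Sox2* itself. By their boxes *Sox2* and *Sox3* belong with *Sox21* to the SoxB group, in which SOX2 and SOX3 are activators and SOX21 is mostly a repressor. *Sox15* is the SoxG gene, *Sox4*, *Sox11* and *Sox12* make up the SoxC group, and *Sox13* is a SoxD gene.

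The same coding stretch of 48 bases at the start of the box is printed for each gene to show how close the members are, since reads from near-identical copies are hard to assign. It was read 5′ to 3′ from the GENCODE M21 transcripts of build GRCm38, and capitals mark the bases that differ from *Sox2*.
Sox2: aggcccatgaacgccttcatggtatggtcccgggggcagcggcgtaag
Sox3: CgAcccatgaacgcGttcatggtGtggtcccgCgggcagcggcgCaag
Sox21: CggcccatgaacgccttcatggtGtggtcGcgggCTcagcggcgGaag
Sox15: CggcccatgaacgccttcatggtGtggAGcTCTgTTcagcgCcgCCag
Sox4: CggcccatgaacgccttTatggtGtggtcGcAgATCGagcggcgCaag
Sox11: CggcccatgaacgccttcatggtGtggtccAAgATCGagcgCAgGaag
Sox12: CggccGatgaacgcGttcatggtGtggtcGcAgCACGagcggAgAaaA
Sox13: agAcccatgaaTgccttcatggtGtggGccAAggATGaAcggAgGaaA

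The stretch lies in the single exon of *Sox2* (chr3:34650548-34650595, + strand), *Sox3* (chrX:60892948-60892995, − strand), *Sox21* (chr14:118235561-118235608, − strand), *Sox4* (chr13:28952794-28952841, − strand), *Sox11* (chr12:27342211-27342258, − strand) and *Sox12* (chr2:152397528-152397575, − strand), in exon 1 of 2 of *Sox15* (chr11:69655517-69655564, + strand) and in exon 12 of 14 of *Sox13* (chr1:133385518-133385565, − strand). *Sox3* and *Sox21* differed from *Sox2* at 6 of the 48 bases, *Sox4* at 10, *Sox11* at 11, *Sox15* at 12, and *Sox12* and *Sox13* at 13. Over the whole box of 237 bases the identity to *Sox2* was 87.8% for *Sox21*, 87.3% for *Sox3*, 72.6% for *Sox15* and 61.6% for *Sox13*, and *Sox4* and *Sox11* shared 88.6% of its bases with each other. The longest run of identical bases between transcripts was 48 bases for *Sox4* and *Sox11*, 38 for *Sox2* and *Sox21*, 33 for *Sox4* and *Sox12*, and 32 for *Sox2* and *Sox3*. With Sox genes that are not members it was 45 bases for *Sox3* and *Sox1*, 38 for *Sox2* and *Sox1*, 35 for *Sox21* and *Sox1*, and 35 for *Sox13* and *Sox7*. Reads that lie wholly within such a run could be assigned to the wrong gene.

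Totals were 21.7 to 30.8 M (mega) reads in CreER libraries and 40.5 to 48.7 M in O4AID libraries, and levels are given as CPM, the reads of a gene per mega reads of the library, after scaling by the trimmed mean of M-values (TMM). *Pou5f1* checked the deletion: it stood at 321 and 317 CPM in the 0 h CreER libraries and at 112 and 123 CPM at 36 h, a log2 fold change of -1.43 ± 0.045 (SE, n = 2 per time; edgeR adjusted p = 4.15e-19). That is 0.371 of the 0 h level, and at 24 h, with 132 and 134 CPM, it was 0.419. What the remaining *Pou5f1* RNA came from was not tested. In O4AID the auxin acts on the protein, so *Pou5f1* RNA (766 CPM at 0 h and 633 CPM at 24 h) does not check the depletion. The 6 naive ESC markers summed to 1707 to 1736 CPM at 0 h and 1583 to 1647 CPM at 36 h in CreER, and to 5249 and 1781 CPM at 0 and 24 h in O4AID, with none at 0. Without *Pou5f1*, itself one of the 6, the sums were 1390 to 1415 and 1460 to 1534 CPM in CreER and 4483 and 1148 CPM in O4AID. At 36 h edgeR called *Nanog* and *Tfcp2l1* higher and *Klf4*, *Zfp42* and *Pou5f1* lower. The 8 trophectoderm markers went from 103 to 111 CPM up to 258 to 275 CPM in CreER, with all 8 called higher at 36 h. In O4AID they summed to 104, 109, 137, 134 and 107 CPM at 0, 1.5, 6, 10 and 24 h, and of the 7 that reached 1 CPM at 0 or 24 h, 6 had at 24 h a log2 ratio above 0 (median 0.88), with *Krt7* past 2-fold. The 6 primitive endoderm markers went from 13.1 to 15.1 CPM up to 35.8 to 36.7 CPM in CreER, with 2 called higher at 36 h, and from 11.3 to 49.9 CPM in O4AID, where 4 of the 5 that reached 1 CPM were higher past 2-fold at 24 h. The 6 neural markers summed to 224 to 225 CPM and 259 to 276 CPM at 0 and 36 h in CreER and to 60.7 and 76.3 CPM at 0 and 24 h in O4AID, where *Olig2* was at 0 from 1.5 h on. Of the 5 tested in CreER at 36 h, *Tubb3* was called higher and *Nes*, *Pax6* and *Olig2* lower, with a median log2 fold change of -0.82. The 6 mesoderm markers summed to 2.62 to 5.23 CPM and the 6 fibroblast markers to 9.24 to 57.8 CPM over all libraries, with *Mesp1*, *Hand2*, *Col3a1* and *Lum* at or under 3 counts in some of them. The part of these lists in the *Sox* values below was not tested, and in bulk RNA fewer cells of a type and less RNA per cell cannot be told apart.

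Before depletion *Sox2* had the highest level per exon length of the family in both lines, and the genes below it stood in a different order in each line. Per kilobase (kb) of exon, CreER at 0 h held 129 CPM of *Sox2*, 23.7 of *Sox15*, 8.31 of *Sox13*, 6.04 of *Sox12*, 5.62 of *Sox11*, 2.59 of *Sox4*, 1.61 of *Sox21* and 0.708 of *Sox3* as means of 2 libraries. *Sox12* (5.58 and 6.50 CPM per kb) and *Sox11* (5.61 and 5.63) overlapped between libraries, whereas each other pair of neighbours among the 8 did not. In O4AID at 0 h the order was *Sox2* at 164 CPM per kb, *Sox21* at 27.7, *Sox15* at 11.2, *Sox12* at 5.82, *Sox13* at 2.65, *Sox4* at 0.29, *Sox11* at 0.206 and *Sox3* at 0.0331, with no replicate to give a spread. *Sox21* was 17.2-fold higher in CPM in O4AID than in the mean of CreER, and *Sox11* was 27.3-fold, *Sox4* 8.93-fold, *Sox13* 3.14-fold and *Sox15* 2.12-fold higher in CreER. *Sox2* (1.27-fold higher in O4AID) and *Sox12* (1.04-fold higher in CreER) were the closest between the lines. These are values of 1 library against 2, with no test. Strain, genotype, doxycycline (given to O4AID only) and *Pou5f1* level (2.4-fold higher *Pou5f1* CPM in O4AID) differed between the lines at once.

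**Figure D1:**
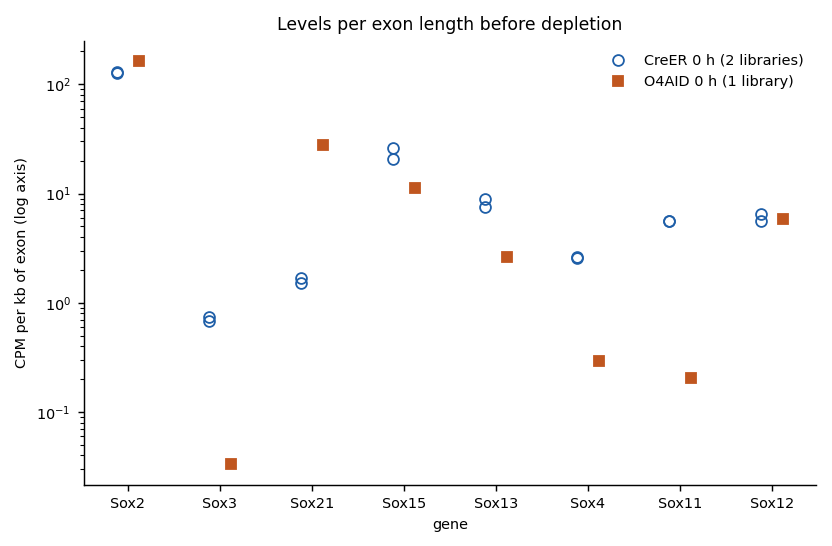
Level of each *Sox* gene per kb of exon at 0 h on a log axis, with open circles for the 2 CreER libraries and filled squares for the O4AID library. *Sox2* is at the top in both lines, *Sox21* is at 27.7 CPM per kb in O4AID against 1.61 in CreER, and *Sox3*, *Sox4* and *Sox11* are lower in O4AID.

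**Figure D2:**
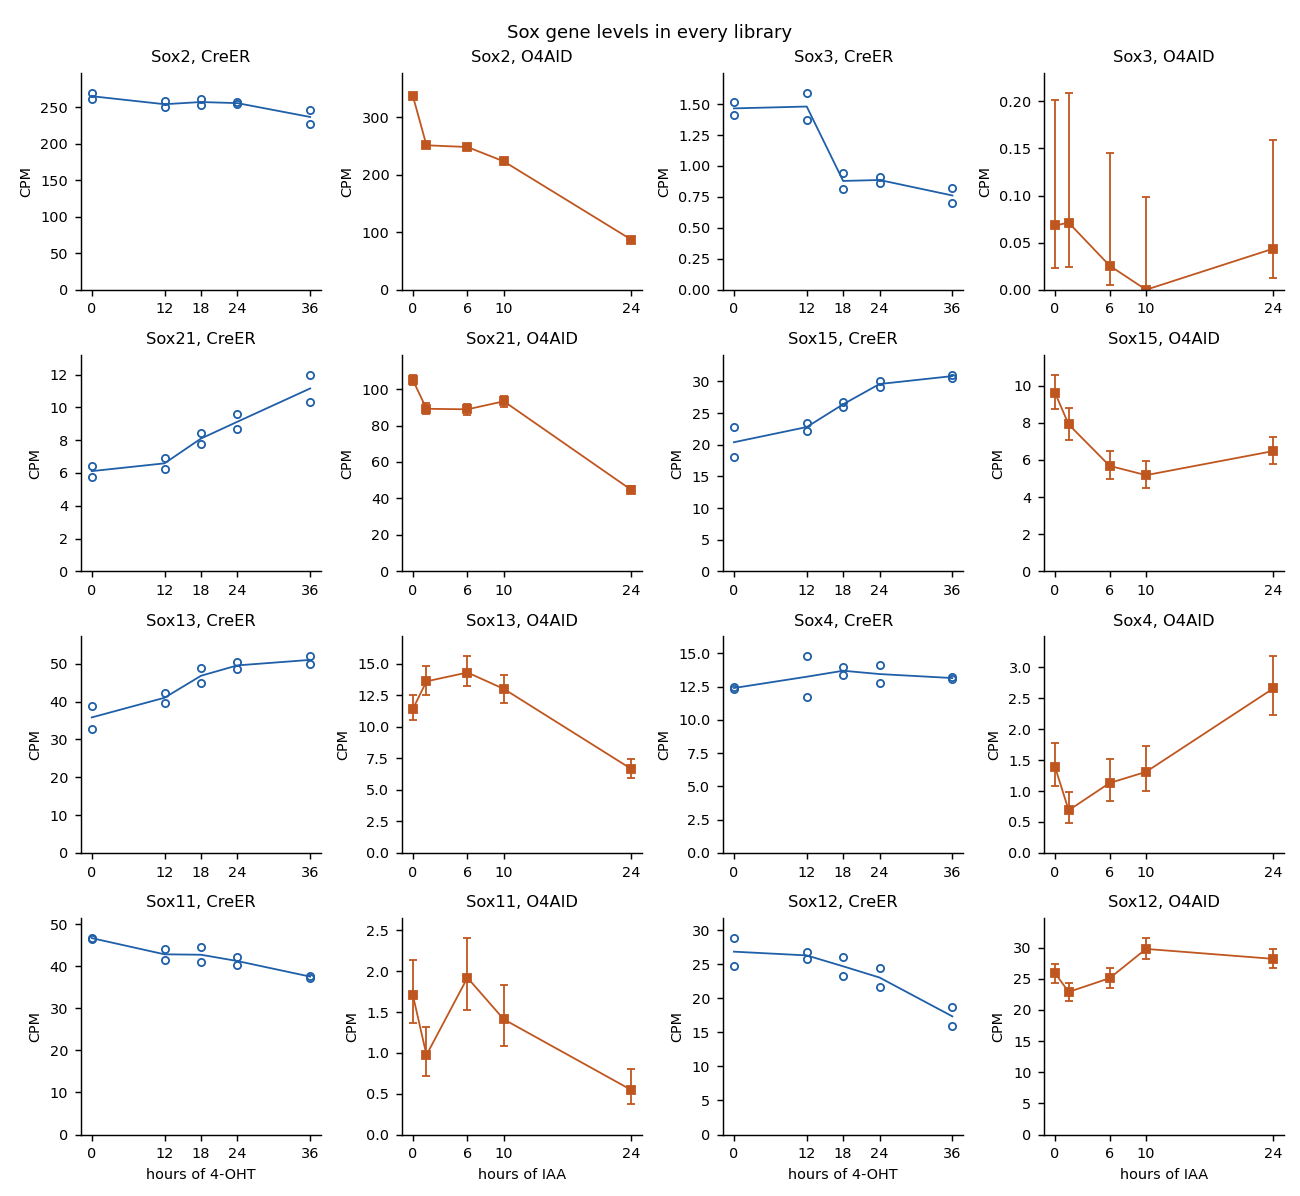
CPM of each *Sox* gene against hours of 4-OHT (CreER, open circles for the 2 libraries at each time and a line through their means) or of IAA (O4AID, squares for single libraries with 95% counting intervals), each axis starting at 0. *Sox21*, *Sox15* and *Sox13* go up with time in CreER and are lower after 24 h than at 0 h in O4AID, and *Sox2* is at 87.1 CPM after 24 h of IAA against 337 CPM at 0 h.

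*Sox2*, which pairs with OCT4, passed the test in CreER after 36 h and at none of the earlier times, and in O4AID it was lower at every time of IAA. Its CreER values were 270 and 261 CPM at 0 h, 250 and 259 after 12 h, 261 and 254 after 18 h, 255 and 257 after 24 h, and 247 and 227 after 36 h. Both libraries at 36 h lay below every other CreER library. In edgeR the change at 36 h was -0.15 ± 0.043 on the log2 scale (SE, n = 2 per time), 0.901 of the 0 h level, with an adjusted p of 0.00628, and at 24 h it was -0.05 ± 0.042 with an adjusted p of 0.487. The call at 36 h passed in 10 of 11 alternatives, with adjusted p from 0.000179 to 0.0979, the last without 36 h replicate 2. The O4AID libraries held 337 CPM of *Sox2* before IAA (95% Wilson interval 331 to 342), 251 after 1.5 h, 248 after 6 h, 223 after 10 h and 87.1 after 24 h (84.5 to 89.9). The 1.5 h library already lay below the 0 h library, and the 24 h library held 25.9% of the 0 h level. The log2 ratio of CPM + 1 against 0 h was -0.42 after 1.5 h, -0.44 after 6 h, -0.59 after 10 h and -1.94 after 24 h (-2.00 to -1.87). These intervals, like all those below, cover counting error only and not the difference between cultures. The range of a ratio pairs opposite ends of the Wilson intervals of both libraries, so it is wider than a 95% interval of the ratio. *Sox2* lies within *Sox2ot*, a long noncoding gene of the same strand, with which it shares 0 exon bases.

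*Sox3*, a SoxB activator known from the neural plate, was rare in both lines and fell in CreER. Its CreER values were 1.41 and 1.52 CPM at 0 h, 1.59 and 1.37 after 12 h, 0.944 and 0.814 after 18 h, 0.911 and 0.862 after 24 h, and 0.821 and 0.702 after 36 h, from 15 to 50 reads per library. The 6 libraries from 18 h on lay below the 4 earlier ones. edgeR gave -0.74 ± 0.25 after 18 h (adjusted p = 0.0697), -0.71 ± 0.25 after 24 h (adjusted p = 0.0405) and -0.92 ± 0.27 after 36 h (adjusted p = 0.00855), on the log2 scale. The 24 h call passed in 3 of 10 alternatives, and leaving out any 1 of the 4 libraries ended it (adjusted p 0.071 and 0.17 without 0 h replicates 1 and 2, 0.131 and 0.158 without 24 h replicates 1 and 2), with a range of 0.0321 to 0.17 over the 10. At 36 h the adjusted p was 0.0535 without 0 h replicate 2, 0.0624 without 36 h replicate 2 and 0.0728 with DESeq2, within a range from 0.00411 over 11 alternatives. In O4AID 3, 3, 1, 0 and 2 reads were counted at 0, 1.5, 6, 10 and 24 h, at or under 0.0712 CPM. A count of 0 at 10 h allows up to 0.0769 CPM, so no change of *Sox3* was detectable at this depth and no ratio is given.

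*Sox21*, whose product mostly represses and which in ESCs is known as a SOX2 target, rose in CreER and was lower after 24 h in O4AID. Its CreER values were 6.44 and 5.78 CPM at 0 h, 6.25 and 6.92 after 12 h, 7.78 and 8.41 after 18 h, 9.58 and 8.66 after 24 h, and 12.0 and 10.3 after 36 h. From 18 h on every library lay above both 0 h libraries. The log2 fold change in edgeR was 0.42 ± 0.12 after 18 h (adjusted p = 0.0234), 0.59 ± 0.11 after 24 h (adjusted p = 0.000357) and 0.89 ± 0.11 after 36 h (adjusted p = 4.26e-07), which is 1.86-fold. The 24 h and 36 h calls passed in 11 of 11 alternatives and the 18 h call in 6 of 11, with adjusted p from 0.0124 to 0.223. At 18 h it was 0.223 without 0 h replicate 2, 0.074 without 18 h replicate 1 and 0.194 without 18 h replicate 2. In O4AID *Sox21* stood at 105 CPM at 0 h, 89.2 after 1.5 h, 88.9 after 6 h, 93.3 after 10 h and 44.7 after 24 h. The first 3 times of IAA lay close together and the 24 h library held 42.5% of the 0 h level, a log2 ratio of -1.22 (-1.32 to -1.11). The antisense gene *Gm4675* overlaps 18.8% of the exon bases of *Sox21*, and since the strand setting of the counting was not stated, reads of both cannot be told apart there. *Gm4675* itself stood at 1.68 and 1.45 CPM at 0 h and 3.01 and 2.95 CPM at 36 h in CreER, and at 1.64 and 1.18 CPM at 0 and 24 h in O4AID.

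*Sox15*, which can pair with OCT4 in ESCs and has a known role in skeletal muscle regeneration, rose in CreER while its O4AID values were below 0 h. In CreER it stood at 22.8 and 18.0 CPM at 0 h, 22.2 and 23.4 after 12 h, 26.8 and 26.0 after 18 h, 30.0 and 29.2 after 24 h, and 31.1 and 30.6 after 36 h. The 0 h libraries were the least alike, and from 18 h on all 6 libraries lay above both. edgeR gave log2 fold changes of 0.39 ± 0.081 after 18 h (adjusted p = 0.00262), 0.55 ± 0.079 after 24 h (adjusted p = 8.26e-06) and 0.62 ± 0.081 after 36 h (adjusted p = 7.26e-07), the last a 1.53-fold rise. The 12 h value was 0.17 ± 0.082 (adjusted p = 0.579), which became 0.34 (adjusted p = 0.0351) without 0 h replicate 1 and -0.003 without 0 h replicate 2, in a range of 0.0351 to 0.999 over 11 alternatives. At 18 h the adjusted p was 0.144 without 0 h replicate 2 and 0.0516 without 18 h replicate 1, in a range from 1.41e-05 over 11 alternatives, and the 24 h and 36 h calls passed in all 11. In O4AID it stood at 9.61 CPM at 0 h, 7.91 after 1.5 h, 5.68 after 6 h, 5.18 after 10 h and 6.48 after 24 h. All 4 IAA libraries lay below 0 h, the 10 h library lowest, with log2 ratios of -0.25 (-0.51 to 0.01), -0.67, -0.78 (-1.07 to -0.49) and -0.50 (-0.77 to -0.24) in order of time. *Mpdu1* on the other strand shares 31 exon bases (3.6%) with *Sox15*.

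*Sox13*, a SoxD gene without an activation domain of its own that is known in T cells, rose in CreER from 18 h on and was lower after 24 h of IAA. Its CreER values were 38.8 and 32.8 CPM at 0 h, 42.3 and 39.7 after 12 h, 48.8 and 44.8 after 18 h, 48.7 and 50.4 after 24 h, and 50.0 and 52.0 after 36 h. Every library from 12 h on lay above both 0 h libraries. In edgeR the log2 fold change was 0.20 ± 0.069 after 12 h (adjusted p = 0.308), 0.40 ± 0.068 after 18 h (adjusted p = 0.000341), 0.48 ± 0.068 after 24 h (adjusted p = 7.69e-06) and 0.53 ± 0.069 after 36 h (adjusted p = 7.97e-07). The calls from 18 h on passed in 11 of 11 alternatives, and at 12 h the adjusted p was 0.0193 without 0 h replicate 1, in a range up to 0.906. O4AID gave 11.4 CPM at 0 h, 13.6 after 1.5 h, 14.3 after 6 h, 13.0 after 10 h and 6.66 after 24 h. The values of the early hours lay above 0 h by log2 ratios of 0.24 (0.009 to 0.46), 0.31 (0.08 to 0.53) and 0.17 (-0.06 to 0.40), and the 24 h value had a log2 ratio of -0.70 (-0.95 to -0.44), 58.4% of the 0 h level.

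The SoxC genes, which are known from neural and mesenchymal progenitors, differed among themselves in CreER, where *Sox11* and *Sox12* fell and *Sox4* passed the test at no time. *Sox12* went from 28.9 and 24.8 CPM at 0 h through 26.8 and 25.8 after 12 h, 26.1 and 23.3 after 18 h, and 21.7 and 24.4 after 24 h to 18.7 and 16.0 after 36 h. Both libraries after 36 h lay below all the others, and the groups at 12 and 18 h overlapped with 0 h. edgeR gave -0.22 ± 0.083 after 24 h (adjusted p = 0.0661, in a range of 0.0127 to 0.472 over 11 alternatives) and -0.61 ± 0.089 after 36 h (adjusted p = 6.02e-06), which is 0.655 of the 0 h level and passed in all 11 alternatives. The 24 h value passed without 0 h replicate 2 (adjusted p = 0.0127). In O4AID *Sox12* stood at 25.9 CPM at 0 h, 22.9 after 1.5 h and 25.1 after 6 h. It stood at 29.8 CPM after 10 h and 28.2 after 24 h, a log2 ratio after 24 h of 0.12 (-0.04 to 0.28). That range is wider than a 95% interval of the ratio, so its holding 0 decides nothing.

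*Sox11*, a SoxC gene, stood at 46.8 and 46.6 CPM at 0 h, 41.5 and 44.2 after 12 h, 44.5 and 41.0 after 18 h, 40.3 and 42.2 after 24 h, and 37.3 and 37.8 after 36 h. Every later library lay below both 0 h libraries. The log2 fold change was -0.17 ± 0.058 at 24 h (edgeR adjusted p = 0.0332) and -0.30 ± 0.06 at 36 h (edgeR adjusted p = 0.000195), 0.81 of the 0 h level. At 36 h it passed in 11 of 11 alternatives. At 24 h it passed in 5 of 11, with adjusted p from 0.0265 to 0.215, and leaving out any 1 of the 4 libraries ended the call (0.0837 and 0.0828 without 0 h replicates 1 and 2, 0.215 and 0.0748 without 24 h replicates 1 and 2). In O4AID, where 25 to 75 reads of *Sox11* were counted, it stood at 1.71, 0.974, 1.92, 1.41 and 0.546 CPM at 0, 1.5, 6, 10 and 24 h. The 24 h library was the lowest, at 32% of the 0 h level. Its log2 ratio of CPM + 1 was -0.81 (-1.20 to -0.39), drawn toward 0 by the added 1 CPM.

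*Sox4*, known from progenitor cells of many tissues, passed the test at no time in CreER. It stood at 12.5 and 12.3 CPM at 0 h, 11.7 and 14.8 after 12 h, 14.0 and 13.4 after 18 h, 12.8 and 14.1 after 24 h, and 13.2 and 13.1 after 36 h. The 12 h replicates spanned the lowest and the highest value of the CreER series. At 36 h the log2 fold change was 0.10 ± 0.1 (edgeR adjusted p = 0.483), and at 18 h it was 0.15 ± 0.096 (edgeR adjusted p = 0.385). In O4AID it was counted with 29 to 122 reads and stood at 1.39, 0.689, 1.13, 1.31 and 2.66 CPM at 0, 1.5, 6, 10 and 24 h. The 1.5 h library was the lowest and the 24 h library the highest, with log2 ratios against 0 h of -0.50 (-0.91 to -0.07) and 0.62 (0.21 to 1.01). The antisense gene *Gm26735* covers 54.6% of the exon bases of *Sox4* and held at most 1 read in any library. Since the strand setting of the counting was not stated, reads of both cannot be told apart there, and that low count does not settle it.

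In CreER the members called numbered 0, 3, 5 and 7 of 8 at 12, 18, 24 and 36 h. At 12 h 0 of 8 were called, where edgeR called 0.258% of 18969 genes higher and 0.137% lower at an adjusted p under 0.05. At an unadjusted p under 0.05 there were 2 of 8 at 12 h, *Sox11* (lower) and *Sox13* (higher), against 8.69% of all genes in either direction, and DESeq2 called 0 of the 7 to which it gave an adjusted p. At 18 h 3 were called, all of them higher (*Sox15*, *Sox21* and *Sox13*), against 4.73% higher and 3.79% lower among all genes. At 24 h the same 3 were higher and *Sox3* and *Sox11* lower, against 11.0% and 10.6%. At 36 h those 3 were higher and *Sox3*, *Sox12*, *Sox11* and *Sox2* lower, against 19.4% and 17.2%. Over the 8 the log2 fold changes had medians of 0.05, 0.06, 0.04 and -0.03 at 12, 18, 24 and 36 h, beside medians over all genes of at most 0.013 in size. These 4 comparisons share the 0 h libraries. From 24 to 36 h, which shares none of them, *Sox12* fell by 0.39 ± 0.091 on the log2 scale (edgeR adjusted p = 0.00374) and the other 7 passed in neither direction, against 8.13% of genes higher and 6.55% lower. That call was lost without 24 h replicate 2 (adjusted p = 0.0739) and without 36 h replicate 2 (0.0751), in a range from 9.43e-06 over 11 alternatives, and without 36 h replicate 2 *Sox21* passed instead (0.039). Scaling by total counts left the members' calls after 36 h as they were but moved the higher share of all calls from 65.3% to 36.9% after 12 h, from 51% to 61.3% after 24 h, from 53.1% to 36% after 36 h and from 55.4% to 17.5% between 24 and 36 h, where it moved the median of all genes to -0.10.

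Without replicates, O4AID genes are described by whether the log2 ratio passed 1 in size, a 2-fold difference, among genes with at least 1 CPM in either library. At 1.5 h 0 of the 7 members compared passed it, against 0.0285% of 14023 genes higher and 0.0784% lower. At 6 h 0 of 7 passed, against 0.502% higher and 0.700% lower, and at 10 h 0 of 7, against 1.33% higher and 1.29% lower. At 24 h *Sox2* and *Sox21* were past it on the lower side and 0 of 7 on the higher side, against 3.66% lower and 4.71% higher of 14470 genes. *Sox11* held 32% of its 0 h CPM at 24 h, and *Sox4* 49.6% at 1.5 h. At their low CPM the added 1 CPM kept both within 2-fold. The median log2 ratio of the 7 was -0.25, -0.17, -0.17 and -0.70 at 1.5, 6, 10 and 24 h, beside -0.015, -0.014, -0.037 and -0.044 over all genes compared. The 4 comparisons rest on 1 library at 0 h, and with the 1.5 h library in its place *Sox2* (lower) and *Sox4* (higher) were the members past 2-fold at 24 h.

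**Figure D3:**
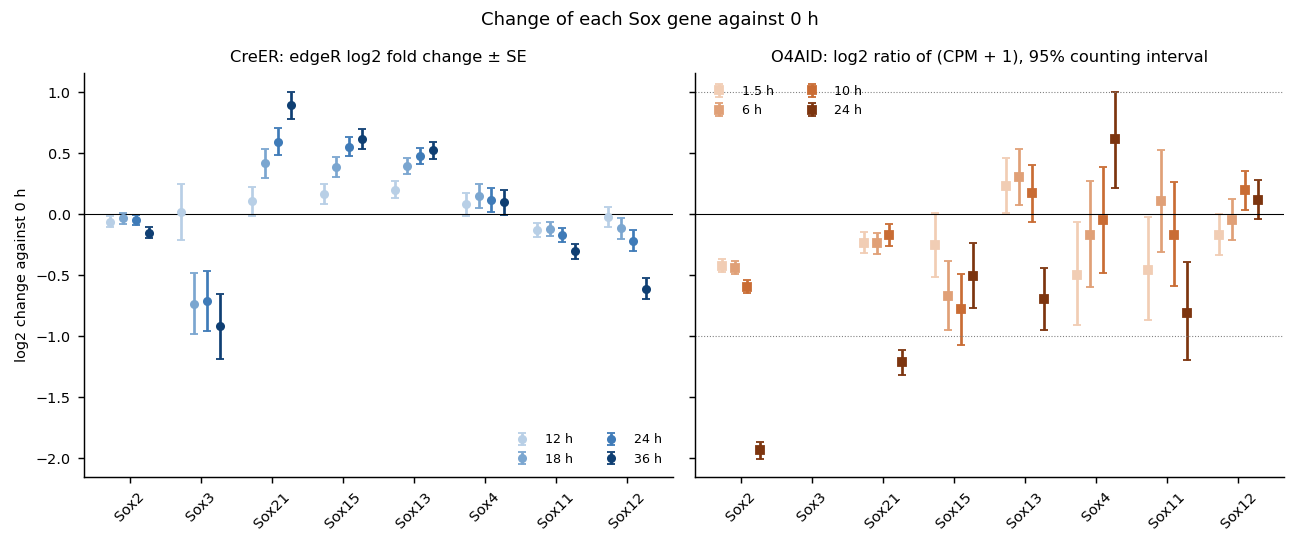
Log2 change of each *Sox* gene against 0 h, with edgeR fold changes ± SE for CreER (left) and log2 ratios of CPM + 1 for O4AID (right, dotted lines at a 2-fold difference, *Sox3* not shown there for its low counts). The O4AID bars pair opposite ends of the 95% counting intervals of both libraries and are wider than a 95% interval of the ratio. *Sox21*, *Sox15* and *Sox13* are above 0 in CreER and below it at 24 h in O4AID, and *Sox2* is at -1.94 in O4AID and -0.15 at the last CreER time.

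At 24 h, the one time after 0 h measured in both lines, the members stood apart as follows, each against its own line's 0 h and on the scale of log2 CPM + 1. *Sox2* was at -0.06 and -0.05 in the CreER libraries and at -1.94 in O4AID. *Sox21* was at 0.57 and 0.44 against -1.22, *Sox15* at 0.54 and 0.50 against -0.50, and *Sox13* at 0.43 and 0.48 against -0.70. *Sox12* was at -0.30 and -0.14 against 0.12. *Sox11* (-0.21 and -0.14 against -0.81) was lower in both lines and *Sox4* (0.04 and 0.17 against 0.62) higher in both. The added 1 CPM draws their low O4AID values toward 0 more than their CreER values. Without it, O4AID at 24 h held 32% of the 0 h CPM of *Sox11* and 192% of that of *Sox4*. With 1 O4AID library at each time the difference between the lines was not tested. The lines also differ in strain, genotype, doxycycline, agent and speed of depletion.

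*Sox2* made up a smaller share of *Sox* RNA per exon length at the last time than at 0 h in both lines. Summed over the 20 family genes, CreER held 186 and 174 CPM per kb at 0 h and 186 and 175 at 36 h. *Sox2* took 70.4% and 72.9% of that sum at 0 h and 64.6% and 63.0% at 36 h, while *Sox15* went from 14.2% and 12.0% to 19.4% and 20.3%. *Sox13* went from 4.83% and 4.38% to 6.24% and 6.91%. The libraries at 0 and 36 h did not overlap for any of these 3 shares. In O4AID the sum went from 214 CPM per kb at 0 h through 165, 162 and 150 to 71.3 at 24 h. The share of *Sox2* went from 76.6% to 59.4%, that of *Sox21* from 12.9% to 16.5%, that of *Sox15* from 5.22% to 10.6% and that of *Sox12* from 2.72% to 8.89%. A share goes up when the rest of the sum goes down, as for *Sox21* and *Sox15* in O4AID, whose own CPM was lower at 24 h.

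**Figure D4:**
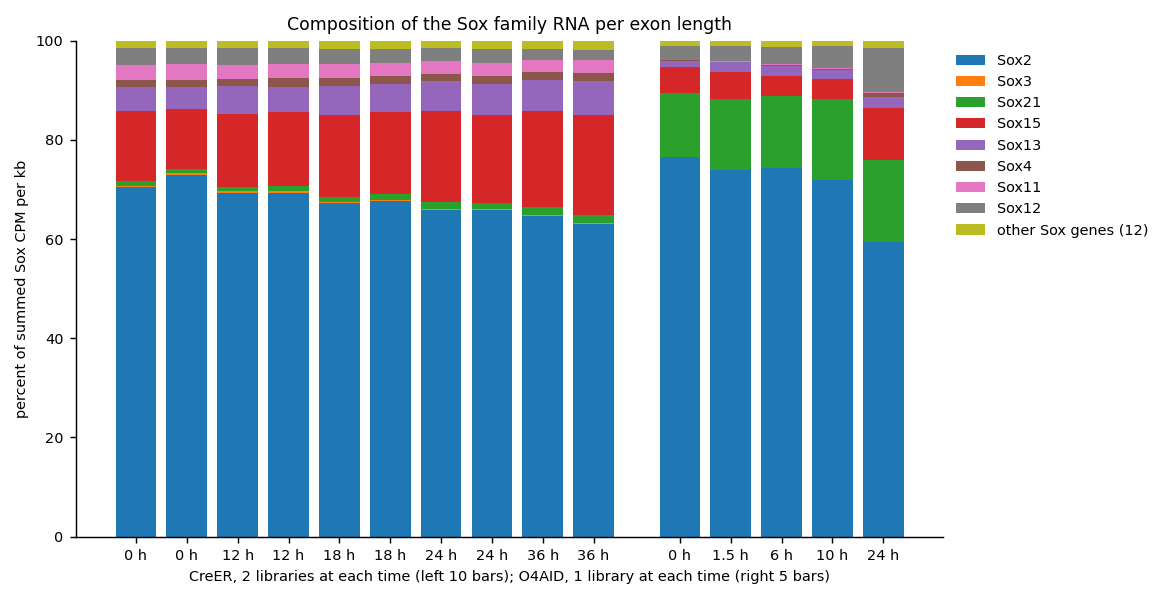
Percent of the summed CPM per kb of the 20 Sox family genes taken by each member in each library, as stacked bars, with CreER on the left (2 libraries at each time) and O4AID on the right (1 at each time). The *Sox2* share is 70.4% and 72.9% at 0 h and 64.6% and 63.0% after 36 h in CreER, and 76.6% at 0 h and 59.4% after 24 h in O4AID.

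Of the 12 other Sox genes, 9 could be tested in CreER, where none stood above 5.62 CPM. *Sox1*, a SoxB activator of neural progenitors, stood at 3.12 and 3.33 CPM at 0 h and rose to 5.16 and 5.62 CPM at 36 h (log2 0.74 ± 0.15, edgeR adjusted p = 0.000267). In O4AID it was lower at each time of IAA, at 9.02, 6.32, 6.22, 4.51 and 1.88 CPM over 0, 1.5, 6, 10 and 24 h, the only 1 of these 12 genes that reached 1 CPM there. *Sox7*, of endoderm and endothelium, fell from 1.76 and 1.35 CPM to 0.469 and 0.468 CPM at 36 h (log2 -1.70 ± 0.35, edgeR adjusted p = 0.000339). *Sox10*, of the neural crest, was called higher at 24 h (log2 0.89 ± 0.3, edgeR adjusted p = 0.036) and at 36 h (log2 0.93 ± 0.31, edgeR adjusted p = 0.0217) on 14 to 35 reads. Both calls were lost without 0 h replicate 2 (adjusted p = 0.299 and 0.22) or without either replicate of the later time, and that at 24 h also with no filter on low counts (adjusted p = 0.062) or with the 4 libraries compared alone (adjusted p = 0.0634). With DESeq2 the adjusted p was NA at 24 h and 0.129 at 36 h. *Sox17*, of endoderm, was at 0.586 and 0.462 CPM at 0 h and 0.899 and 0.702 CPM after 36 h (edgeR adjusted p = 0.162), and at 0.296 and 0.873 CPM at 0 and 24 h in O4AID. edgeR called 1 of the 9 higher after 24 h, against 11.0% of all genes higher and 10.6% lower. At 36 h it called 2 higher and 1 lower, against 19.4% and 17.2%, a share of the 9 near that of all genes. Their log2 fold changes at 36 h had a median of 0.46 beside 0.007 over all genes.

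Genes with a known OCT4-SOX2 composite element besides *Sox2* were followed beside the members. In CreER edgeR called 3 of these 6 at 12 h, with *Lefty1*, a Nodal inhibitor, higher (log2 0.35 ± 0.067, adjusted p = 0.011) and *Pou5f1* and *Fgf4*, a growth factor that primes differentiation, lower (*Fgf4* log2 -0.23 ± 0.043, adjusted p = 0.00796), against 0.258% of all genes called higher and 0.137% lower. *Pou5f1* is the deleted gene, so its own call was set by the design. Without either 12 h replicate the edgeR calls of *Lefty1* (adjusted p = 0.0858 and 0.263) and *Fgf4* (adjusted p = 0.0976 and 0.244) were lost, as was that of *Lefty1* without 0 h replicate 2 (adjusted p = 0.214). At 36 h all 6 were called: *Nanog*, a core pluripotency factor, was higher (log2 0.20 ± 0.037, edgeR adjusted p = 0.000119), and *Pou5f1*, *Fbxo15*, *Lefty1*, *Utf1* and *Fgf4* were lower, against 19.4% of all genes higher and 17.2% lower. In O4AID 0, 1, 2 and 5 of the 6 were lower past 2-fold at 1.5, 6, 10 and 24 h, against 0.0784%, 0.700%, 1.29% and 3.66% of all genes, and 0 were higher. *Fgf4* had the lowest log2 ratio at 24 h, -3.12, from 244 to 27.2 CPM, and *Nanog* was at -1.79, from 1392 to 402 CPM. *Pou5f1* (-0.27), whose RNA comes from transgenes in this line, was the one that did not pass.

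The genes whose profiles were most like each member's were ranked by Pearson's r of log2(CPM + 1), centred within each line, over the 15 libraries and 12777 genes. These r values share libraries and time and are a description, with no test. For *Sox2* they were *Rps6ka2*, *Fblim1* and *Mep1b* (r = 0.974, 0.974 and 0.973), and for *Sox21* they were *Pkp4*, *Kalrn* and *Ubald2* (0.957, 0.95 and 0.945). *Sox2* CPM spanned 1.19-fold over the CreER libraries and 3.86-fold over the O4AID libraries, lowest at 24 h. Its r values therefore rest mostly on the single O4AID library at 24 h. *Sox15* was most like *Ctc1*, *Ston2* and *Ogdhl* (0.968, 0.941 and 0.929), and *Sox13* most like *Gdf15*, *Lasp1* and *Trak1* (0.984, 0.948 and 0.947). In the SoxC group *Sox4* was most like *Ubr1*, *Efna2* and *Matn2* (0.921, 0.919 and 0.911), *Sox11* most like *Colgalt1*, *Slc16a3* and *Aldoa* (0.941, 0.939 and 0.933), and *Sox12* most like *Gemin5*, *Limk1* and *Igf2bp2* (0.945, 0.937 and 0.931). *Sox4* and *Sox11* CPM each spanned 1.26-fold over the CreER libraries, and 3.87-fold and 3.52-fold over the O4AID libraries. The r values of *Sox4* and *Sox11* therefore rest mostly on the O4AID libraries, where their counts were low. No member was among the genes most like another member, and *Sox3* was too low in O4AID to be ranked.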

How the data were processed

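RNA was depleted of ribosomal RNA, made into directional libraries and sequenced paired-end. Per the labels and the study's methods, the authors trimmed reads with Trim Galore 0.1.4, aligned them to GRCm38/mm10 with TopHat2 2.1.0 and counted them per gene with featureCounts 1.5.1 on Ensembl annotation. The strand setting and read length are not given in the sources used here. The deposited files hold raw counts, and the authors' TMM-normalized table was not used. Spike-in entries (92, with 0 reads) were left out, and genes without a symbol (0.0412% of reads) stayed in the tests.

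For CreER the quasi-likelihood F-test of edgeR 4.0.16 was run on the counts (R 4.3.3, TMM, filterByExpr, robust, prior count 0.125) over all 10 CreER libraries, with Benjamini-Hochberg adjustment over 18969 genes and calls at an adjusted p under 0.05. The SE is the size of the log2 fold change over the square root of F. The scripts were tested on simulated data. Replicates differed by more than sampling noise (chi-square per degree of freedom 3.02 to 7). O4AID ratios used TMM CPM + 1 and no test, since there are no replicates. Their ranges pair opposite ends of the 95% Wilson intervals of both libraries, which is wider than a 95% interval of the ratio. The study's NOISeq-sim was not rerun because it simulates replicates. The 1 CPM minimum for O4AID genes was set after the files were seen. Reads carry no molecular identifiers, so intervals and floors (3 counts) cover counting error only. Alternatives were RLE factors, total-count scaling, other filters, a replicate block, DESeq2 1.42.0, the 4 libraries compared alone, each library left out and, for O4AID, pseudocounts of 0.1 and 5 CPM and the 1.5 h library as reference. Named genes are the 8 members, the 12 other Sox genes, 6 genes with OCT4-SOX2 elements and the 3 genes most like each member with a mean of at least 1 CPM in each line. The members and all lists were chosen with earlier results of these data known. Exon lengths and exon overlaps came from the annotation given with the deposited counts. Sequences and the positions of the printed stretches came from GENCODE M21 (GRCm38), and Python 3.11.15 was used.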

Additional observations from a re-analysis of the deposited data

Results flagged for a closer look

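At 24 h *Sox21*, *Sox15* and *Sox13* stood on opposite sides of 0 h in the 2 lines. Both CreER libraries lay above both 0 h libraries for each gene, and the O4AID library lay below its 0 h library, with log2 ratios of -1.215 for *Sox21*, -0.504 for *Sox15* and -0.696 for *Sox13*. The difference between the lines was not tested, since O4AID has 1 library at each time. No group has 4 or more samples, so no sample could be called an outlier.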

How the results depend on the processing

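The number of *Sox* members called in CreER at 24 h was 5, and 3 with total-count scaling and 3 with DESeq2, which gave *Sox3* no adjusted p, and from 24 to 36 h it was 1, and 3 with total-count scaling. Leaving out 1 library gave 0 to 2 members at 12 h (2 without 0 h replicate 1), 1 to 3 at 18 h (1 without 0 h replicate 2 or 18 h replicate 1), 3 to 4 at 24 h (3 without 0 h replicate 1 or either 24 h replicate), 5 to 7 at 36 h, and 0 to 2 from 24 to 36 h (0 without 24 h replicate 2, 2 without 36 h replicate 1). In CreER, changes of sign were seen only in member values that were not called. At 12 h *Sox3* became -0.017 with total-count scaling, and leaving out 1 library gave log2 values of -0.102 to 0.111 for *Sox3*, -0.003 to 0.340 for *Sox15*, -0.089 to 0.250 for *Sox4* and -0.138 to 0.087 for *Sox12*. From 24 to 36 h *Sox15* became -0.045 and *Sox13* -0.060 with total-count scaling, and leaving out 1 library gave -0.086 to 0.040 for *Sox4*. The cause was not tested. Replicate numbers did not pair the samples (correlations of deviations -0.048 to 0.096 over 15118 genes), and with the replicate block 0, 3, 6, 7 and 1 members were called at 12, 18, 24 and 36 h and from 24 to 36 h. The members past 2-fold in O4AID at 24 h numbered 2 under every alternative except a pseudocount of 0.1 CPM, which gave 3 by adding *Sox11*. With the 1.5 h library as reference, though, the 2 were *Sox2* (lower) and *Sox4* (higher), and *Sox21* was not past 2-fold. With 2 libraries at each CreER time and 1 at each O4AID time, the depth limits *Sox3* in both lines and *Sox4* and *Sox11* in O4AID.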
